A study of Mus musculus with 16 samples.

Results

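Fibro-inflammatory progenitors (FIPs) and mesothelial-like cells (MLCs) of the mouse epididymal fat pad, taken a week after birth, shared 160 genes that set them apart from adipocyte precursor cells (APCs) and smooth muscle cells (SMCs). A gene was a member when every FIP and MLC library lay above, or every one lay below, every APC and SMC library, with at least a 2-fold gap between the nearest population means on log2(value + 1). The values are normalized counts, reads per gene divided by 1 factor per library. Of the 27179 rows in the table, 54 were members on the higher side (0.199% of all rows) and 106 on the lower side (0.390%). These values chose the members, so the separation of FIPs and MLCs from APCs and SMCs is a description and carries no test here. The same rule gave 838 higher and 146 lower genes for MLCs and SMCs against FIPs and APCs. It gave 45 higher and 85 lower genes for APCs and MLCs against FIPs and SMCs.

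FIPs, MLCs, APCs and SMCs had 4 libraries each, made from freshly isolated cells that all expressed Pdgfrb, the platelet-derived growth factor receptor beta. They came by flow cytometry out of epididymal fat of C57BL/6 mice on postnatal day 7. The labels name no transgene, genotype or treatment other than the strain, and give neither the sex, nor whether animals were pooled, nor the surface markers that split the populations. They do not say that libraries came from separate animals, so p-values measure the spread between libraries, which may be technical. In bulk RNA of a sorted population, fewer cells of a type and less RNA per cell cannot be told apart.

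Library depth ran from 9.20 to 27.5 M reads, lowest in SMCs replicate 3 and APCs replicate 4. Ly6c1, a surface protein used to recognise fibro-inflammatory progenitors, averaged 2759.9 in FIPs and at most 108 in the other populations. Msln, which codes for mesothelin, averaged 31.3 in FIPs and 14396 in MLCs, against 10.5 in APCs and 641 in SMCs. Both labels were met by these markers. Pdgfrb itself averaged 2862 in FIPs and 457 in MLCs, against 4717 in APCs and 3787 in SMCs. The contractile gene Acta2 averaged 237 in FIPs and 1428 in MLCs, against 746 in APCs and 4537 in SMCs. Myh11, smooth muscle myosin, did not single out SMCs, at 41.3 in FIPs and 1288 in MLCs, against 140.2 in APCs and 1262 in SMCs. Pdgfra, a fibroblast receptor gene, averaged 22966 in FIPs and 471 in MLCs, against 20555 in APCs and 23838 in SMCs. Without the shallowest libraries, APCs replicate 4 and SMCs replicate 3, the rule gave 65 higher genes, 52 of them among the 54, and 116 lower genes, 101 of them among the 106.

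As background, fat depots hold a Dpp4-positive stromal progenitor that lies in the connective tissue around the lobules, and a more committed preadipocyte that lies within them. The mesothelium is the epithelial sheet that covers visceral organs, and it also carries DPP4. Secreted Wnt and BMP modulators, prostaglandins and the plasminogen activator system are classic ways in which such surface and stromal cells act on their neighbours.

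The median gap between the nearest means was 1.39 on the log2 scale for higher members and 1.52 for lower members, and 11 higher and 30 lower members passed 4-fold. Most were well expressed on their high side, with a mean of at least 100 in both high populations for 39 higher and 56 lower members. On the higher side SMCs came nearest in 35 genes and APCs in 19. On the lower side FIPs were the nearer of the low pair in 83 genes and MLCs in 23. Under every other pseudocount, scale and left-out library, 34 of the higher and 68 of the lower members remained. RefSeq listed 50 of 53 matched higher members and 98 of 104 matched lower members as protein coding.

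Dpp4, a serine peptidase on the cell surface that trims incretins and chemokines, had 2139.9, 1645, 2219 and 2209 in FIPs and 9132, 8215, 8969.6 and 8905 in MLCs, against 53.2, 34.2, 32.9 and 89.9 in APCs and 345, 321, 450.5 and 241 in SMCs. The lowest FIP library stood above the highest SMC library, and MLC libraries were the highest of all. The gap between the nearest means, FIPs over SMCs, was 6.13-fold. FIPs and MLCs themselves differed, which the rule did not use: the log2 difference, FIPs minus MLCs, was -2.11 (SE 0.23, adjusted p = 1.08e-07) in limma with Benjamini-Hochberg adjustment. APCs minus SMCs came to -2.75 (SE 0.23, adjusted p = 7.7e-09), so the 4 populations ran in the order MLCs, FIPs, SMCs, APCs. The gene lies on the minus strand at chr2:62330073-62412315 (GRCm38.p6, RefSeq).

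**Figure D1:**
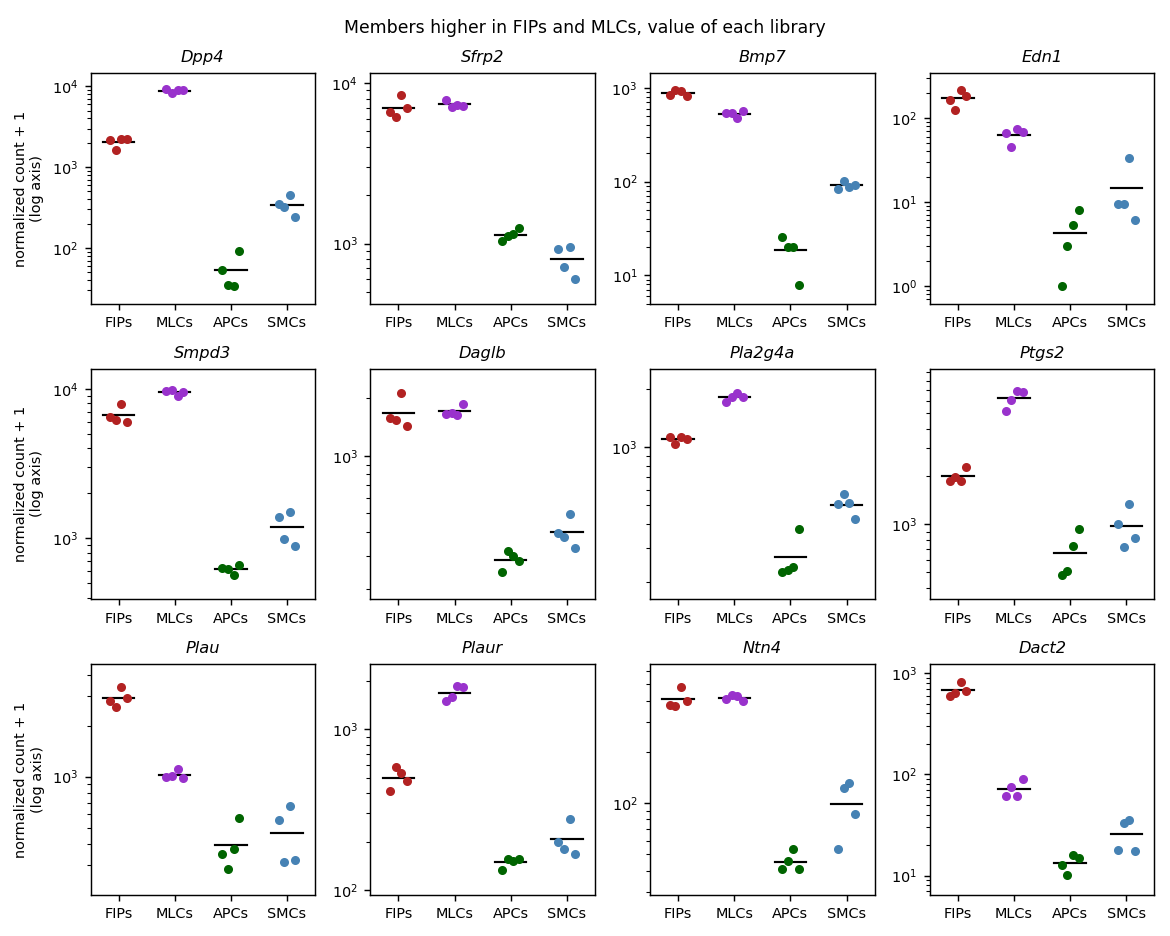
Normalized count plus 1 on a log axis for 12 members higher in FIPs and MLCs. Each point is 1 library and each bar the mean of 4. In every panel all FIP and MLC points lie above all APC and SMC points; Dpp4 and Ptgs2 stand highest in MLCs and Plau and Dact2 in FIPs.

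The promoters of a few members are shown because their genes either have the widest gaps on the higher side (Sfrp2 and Dpp4) or belong to a family with members on opposite sides (Edn1 and Edn3, Sfrp2 and Sfrp5), and Plaur is shown for its AP-1 match. Each runs from 250 bases before to 50 bases after the RefSeq start on GRCm38.p6, 5′ to 3′ on the gene's strand. Capitals mark every match, on either strand, to 6 short motifs. EBF factors were searched as CCCNNGGG, which reads the same on both strands. The TEAD motif, bound by the partners of YAP, was searched as GGAATG. For AP-1, the Fos and Jun dimer, the letters were TGANTCA. The GATA factors, which include a regulator of the mesothelium, were given AGATAA. The NF-kB search used GGANTTTCC, and that for the TATA box, an element upstream of some start sites, used TATAAA.
Dpp4 chr2:62412182-62412481, minus strand: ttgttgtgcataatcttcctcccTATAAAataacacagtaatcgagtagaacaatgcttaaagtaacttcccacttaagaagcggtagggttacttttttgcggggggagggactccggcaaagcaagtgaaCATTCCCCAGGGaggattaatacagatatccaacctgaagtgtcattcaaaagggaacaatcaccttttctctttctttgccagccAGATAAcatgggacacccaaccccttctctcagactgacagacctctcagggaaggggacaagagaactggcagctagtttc
Sfrp2 chr3:83766071-83766370, plus strand: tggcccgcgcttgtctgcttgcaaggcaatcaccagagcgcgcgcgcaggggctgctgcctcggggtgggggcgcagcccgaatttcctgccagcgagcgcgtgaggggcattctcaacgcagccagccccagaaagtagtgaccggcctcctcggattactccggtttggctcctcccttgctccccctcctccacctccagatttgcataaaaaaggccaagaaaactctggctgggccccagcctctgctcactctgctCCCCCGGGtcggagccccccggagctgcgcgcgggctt
Plaur chr7:24462233-24462532, plus strand: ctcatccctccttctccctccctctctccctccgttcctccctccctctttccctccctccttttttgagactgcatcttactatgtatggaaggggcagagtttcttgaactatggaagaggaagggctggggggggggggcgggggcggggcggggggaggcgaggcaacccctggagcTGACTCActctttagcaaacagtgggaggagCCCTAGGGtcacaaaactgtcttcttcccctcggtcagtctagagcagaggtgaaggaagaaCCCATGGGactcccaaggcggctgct
Edn1 chr13:42301226-42301525, plus strand: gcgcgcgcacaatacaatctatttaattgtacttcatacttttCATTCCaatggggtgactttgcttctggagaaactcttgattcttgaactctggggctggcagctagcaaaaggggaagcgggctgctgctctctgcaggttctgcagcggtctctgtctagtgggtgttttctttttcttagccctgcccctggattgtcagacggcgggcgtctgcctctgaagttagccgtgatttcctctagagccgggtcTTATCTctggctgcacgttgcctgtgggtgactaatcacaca
Edn3 chr2:174760369-174760668, plus strand: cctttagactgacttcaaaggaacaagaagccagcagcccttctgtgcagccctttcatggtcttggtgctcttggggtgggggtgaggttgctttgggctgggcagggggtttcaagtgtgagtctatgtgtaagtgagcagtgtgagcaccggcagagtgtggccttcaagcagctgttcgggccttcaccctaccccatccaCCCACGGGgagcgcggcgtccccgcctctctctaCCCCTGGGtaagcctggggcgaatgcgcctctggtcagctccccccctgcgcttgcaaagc
Sfrp5 chr19:42202203-42202502, minus strand: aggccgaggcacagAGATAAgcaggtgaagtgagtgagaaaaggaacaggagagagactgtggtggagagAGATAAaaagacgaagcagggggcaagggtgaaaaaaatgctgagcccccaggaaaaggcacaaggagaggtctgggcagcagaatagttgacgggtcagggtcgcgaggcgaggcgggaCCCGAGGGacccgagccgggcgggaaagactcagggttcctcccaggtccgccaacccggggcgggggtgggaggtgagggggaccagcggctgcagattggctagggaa
Dpp4 held an EBF match at -114 relative to the start, overlapping a TEAD match at -118, a GATA match at -32 and a TATA box match at -227. Plaur held an AP-1 match at -69 and EBF matches at -38 and 25, and Sfrp2 an EBF match at 13. Edn1 held a TEAD match at -207 and a GATA match at 9, Edn3 EBF matches at -45 and -11, and Sfrp5 an EBF match at -60 and GATA matches at -236 and -180.

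RefSeq listed 52 promoters for 42 of the higher members and 100 promoters for 84 of the lower members. Each promoter was counted, so a gene or a sequence could count more than once. Man1a and Gm16998 had nearly the same window on opposite strands, and both counted for EBF. Tmem108 on the higher side and Cnr1 on the lower each had more than 1 promoter with the EBF letters. The EBF letters were in 19 of the 52 higher promoters (36.5%) and 20 of the 100 lower ones, against 18.4% of the promoters of all tested genes and 15.6% of those of all genes in the table. GATA letters were in 17.3% of higher and 11% of lower promoters, against 6.39% of tested and 9.63% of all. TEAD letters were in 17.3% of higher and 12% of lower promoters, against 12.6% of tested and 13.7% of all. AP-1 letters were in 7.69% of higher and 5.0% of lower promoters, against 5.28% of tested and 7.24% of all. The TATA box was in 11.5% of higher and 12% of lower promoters, against 7.40% of tested and 12.4% of all. Both shares lay above that of the tested genes and no higher than that of the whole table. NF-kB letters were in 0 higher and 3 lower promoters, against 1.36% of tested and 1.30% of all. Members on both sides had fewer CG dinucleotides in this window, a median of 11 for higher and 13.5 for lower members, against 19 for all tested genes. These shares describe letters in a window; they are not binding sites.

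Sfrp2, Bmp7 and Dact2, which act on Wnt or BMP signalling, were higher members. Sfrp2, a secreted Frizzled-related protein that binds Wnt ligands, had 6561, 6107, 8399 and 7031 in FIPs and 7873, 7119, 7316 and 7221 in MLCs, against 1033, 1113, 1145 and 1250.2 in APCs and 920.2, 713, 946 and 601 in SMCs. FIP and MLC libraries overlapped each other, and the difference between them was -0.08 (SE 0.12, adjusted p = 0.56). The gap between the nearest means was 6.15-fold, the widest on the higher side.

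Bmp7, a bone morphogenetic protein linked to brown fat formation, had 833, 941, 935 and 819 in FIPs and 543, 536, 477 and 572 in MLCs, against 24.5, 19.1, 19.3 and 6.92 in APCs and 83.2, 101, 87.5 and 92 in SMCs. It was highest in FIPs, whose libraries did not overlap those of MLCs, and the gap between the nearest means was 5.8-fold. Dact2, an intracellular scaffold that binds Dishevelled, averaged 679 ± 95.9 in FIPs and 70.6 ± 14 in MLCs, against 12.4 ± 2.60 in APCs and 24.8 ± 9.56 in SMCs (SD, n = 4 each, as for every ± value). Its FIP minus MLC difference of 3.26 (SE 0.24, adjusted p = 2.42e-10) was the highest among the tested higher members. Ntn4, a laminin-related netrin of basement membranes, averaged 407 ± 51.2 in FIPs and 414 ± 16 in MLCs, against 44.2 ± 6.20 in APCs and 97.3 ± 35.7 in SMCs, with overlapping FIP and MLC libraries.

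The lower side held relatives of these genes. Sfrp5, another secreted Frizzled-related protein, was below the filter on low values, with 0.989, 0, 1.91 and 0.907 in FIPs and 0, 0.846, 0.738 and 1.76 in MLCs, against 7.61, 12.1, 6.43 and 3.46 in APCs and 13.7, 4.27, 2.13 and 30.7 in SMCs. The highest FIP library, at 1.91, lay just under the lowest SMC library, at 2.13. Sfrp5, Dact3 and Shisa3 each left the members under at least 1 other pseudocount, scale or left-out library. Dact3, a second Dact scaffold, averaged 459 ± 31.4 in FIPs and 519.7 ± 8.09 in MLCs, against 1073 ± 57.9 in APCs and 1193 ± 67.1 in SMCs. Inhbb, the beta-B subunit of activins and inhibins, averaged 302 ± 11.8 in FIPs and 131 ± 18 in MLCs, against 657 ± 25.7 in APCs and 1099.8 ± 184 in SMCs. Shisa3, which keeps Frizzled and FGF receptors from the cell surface, averaged 58.7 in FIPs and 85.4 in MLCs, against 261 in APCs and 190.2 in SMCs. In the Wnt list, 12 were called higher and 7 lower in the mean of FIPs and MLCs against the mean of APCs and SMCs, of 51 tested, where 7.00% and 7.55% of all tested genes were called. That contrast is the one the rule used and can be carried by 1 population: Wnt10b averaged 596 in FIPs and 13.8 in MLCs, against 8.72 in APCs and 76.7 in SMCs, and Sfrp1 averaged 12307 in FIPs and 483 in MLCs, against 18852 in APCs and 34333 in SMCs. The median log2 difference of the Wnt list was -0.05, and over all tested genes it was 0.02.

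In the list of BMP and TGF-beta genes, 5 were called higher and 13 lower of 55 tested in the same contrast, with a median of -0.20. The shares over all tested genes were 7.00% and 7.55%. Bmp6, a relative of Bmp7 that is no member, averaged 262 in FIPs and 865 in MLCs, against 24.3 in APCs and 247 in SMCs, so its FIP and SMC means lay close together. Tgfbi, a TGF-beta-induced matrix protein, was the most abundant lower member, at 5708 ± 557 in FIPs and 4915 ± 298 in MLCs, against 12963 ± 1051 in APCs and 13488 ± 1312 in SMCs. Ltbp2, a latent TGF-beta binding protein of elastic fibres, had 50.5, 81.4, 43.9 and 66.2 in FIPs and 123, 208, 172 and 140.0 in MLCs, against 305, 287, 250.2 and 742 in APCs and 3258, 3055, 3077 and 2661 in SMCs. SMCs stood far above the other populations, and APCs replicate 4 was well above the other APC libraries.

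Endothelin genes fell on opposite sides. Edn1, the vasoconstrictor endothelin 1, had 161, 123, 217 and 182 in FIPs and 66.2, 44, 72.3 and 66.9 in MLCs, against 0, 2.01, 4.29 and 6.92 in APCs and 8.42, 8.54, 32 and 5.11 in SMCs. Its values were low in APCs, with 1 library at 0, and SMCs replicate 3 lay well above the other SMC libraries. Edn3, endothelin 3, had 13.9, 9.24, 18.1 and 12.7 in FIPs and 2.51, 7.61, 2.95 and 3.52 in MLCs, against 65.9, 71.5, 77.9 and 55.3 in APCs and 424, 342, 256 and 426 in SMCs. SMCs held the most Edn3 and MLCs the least. Ednra, a receptor for endothelin 1 that is no member, averaged 319 in FIPs and 21.4 in MLCs, against 609.7 in APCs and 1976 in SMCs.

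Enzymes of lipid signalling formed a further group on the higher side. Smpd3, neutral sphingomyelinase 2, which makes ceramide, had 6470.2, 6204, 7981 and 6037 in FIPs and 9734, 9853, 8979.9 and 9523 in MLCs, against 633, 623, 561 and 655 in APCs and 1388, 992, 1503 and 889 in SMCs. The gap between the nearest means was 5.69-fold. Daglb, a diacylglycerol lipase that makes the endocannabinoid 2-arachidonoylglycerol, had 1571, 1535, 2138 and 1425 in FIPs and 1665, 1683, 1641 and 1857 in MLCs, against 246, 315, 297 and 282 in APCs and 392, 376, 497 and 328 in SMCs. FIP and MLC libraries of Daglb overlapped. Cnr1, the cannabinoid receptor 1, was a lower member, with 8.90, 12.9, 10.5 and 14.5 in FIPs and 4.19, 3.38, 6.64 and 5.28 in MLCs, against 104, 104, 109 and 121 in APCs and 186, 292, 248 and 237 in SMCs. Every FIP and MLC library was below 15 and every APC and SMC library above 100.

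Pla2g4a and Ptgs2, which act early in prostaglandin synthesis, were higher members, and Ptgir, a prostaglandin receptor gene, a lower one. All 3 left the members under at least 1 other pseudocount, scale or left-out library. Pla2g4a, the cytosolic phospholipase A2 that frees arachidonate, averaged 1101 ± 41.9 in FIPs and 1817 ± 82.4 in MLCs, against 267 ± 71.5 in APCs and 502 ± 62.1 in SMCs. Ptgs2, the inducible cyclooxygenase, had 1862, 1990.5, 1876 and 2294 in FIPs and 5126, 6072, 6926 and 6735 in MLCs, against 483, 509.5, 731 and 932 in APCs and 1003, 721, 1337 and 818 in SMCs. FIPs lay below MLCs, at a log2 difference of -1.63 (SE 0.19, adjusted p = 2.18e-07), and Ptgs2 was close to the threshold of the rule, with a 2.12-fold gap. Ptgir, the prostacyclin receptor, had 56.4, 46.2, 78.3 and 60.8 in FIPs and 33.5, 21.1, 38.4 and 40.5 in MLCs, against 139, 119, 131 and 140.1 in APCs and 108, 130.2, 164 and 129 in SMCs. The FIP and MLC libraries all lay under 80 and the others all above 100, and the gap was 2.2-fold. The prostaglandin list had a median of 0.29 in the contrast that the rule used, which 1 population can carry. In it, 6 were called higher and 3 lower of 20 tested. Over all tested genes, 7.00% and 7.55% were so called. Ptgs1, the constitutive cyclooxygenase, is no member and averaged 554 in FIPs and 2755 in MLCs, against 87.1 in APCs and 335 in SMCs. Ptges, a prostaglandin E synthase and no member, was called lower, averaging 1682 in FIPs and 129 in MLCs, against 2405 in APCs and 774 in SMCs.

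Pla2g4a and Ptgs2 are next to each other among protein-coding genes on chromosome 1, 138741 bases apart. Other adjacent pairs on the same side were Lrrc8b and Lrrc8c on chromosome 5, 29266 bases apart, Edn1 and Phactr1 on chromosome 13, and, among lower members, Cnmd and Pcdh8 on chromosome 14. Lrrc8b and Lrrc8c both code for subunits of volume-regulated anion channels, and Lrrc8b averaged 382 in FIPs and 446 in MLCs, against 98.1 in APCs and 136 in SMCs. Lrrc8c averaged 837 in FIPs and 916 in MLCs, against 222 in APCs and 353 in SMCs. A pair of lower members, Dact3 and Ptgir on chromosome 7, had 1 protein-coding gene between them, as did Moxd1 and Enpp1 on chromosome 10. Gng2 and Kcnk5 on chromosome 14, also with 1 gene between them, were on opposite sides.

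The urokinase system was on the higher side with its inhibitor on the lower. Plau, the urokinase plasminogen activator, had 2797, 2576, 3386 and 2889 in FIPs and 997, 1003, 1107 and 978 in MLCs, against 349.9, 283, 375 and 569 in APCs and 554, 312, 666 and 319 in SMCs. Plaur, its surface receptor, had 411, 579, 534 and 474 in FIPs and 1492, 1586, 1845 and 1827 in MLCs, against 133, 155, 151 and 156 in APCs and 199, 179, 278 and 168 in SMCs. No FIP library overlapped an MLC library for either gene. The ligand was higher in FIPs than in MLCs, by 1.51 (SE 0.21, adjusted p = 3.04e-06), and the receptor lower, at -1.76 (SE 0.13, adjusted p = 5.37e-10). Serpine2, protease nexin 1, which inhibits urokinase and thrombin, averaged 127 ± 19.3 in FIPs and 60.9 ± 15.6 in MLCs, against 369 ± 108 in APCs and 851 ± 152 in SMCs. Its APC replicate 4 lay above the other APC libraries. Folh1, a surface carboxypeptidase, averaged 123 in FIPs and 288 in MLCs, against 21.3 in APCs and 40.7 in SMCs. In the list of matrix proteases and inhibitors, 7 were called higher and 19 lower of 54 tested in the contrast that the rule used. The median was -0.30. Over all tested genes, 7.00% and 7.55% were so called, and 1 population can carry this contrast. Of the 54, 24 were called higher in FIPs than in MLCs and 13 lower, where 12.5% and 18.6% of all tested genes were. The list summed to a mean of 378659 in FIPs and 139594 in MLCs, against 286641 in APCs and 226333 in SMCs. Pappa and Pappa2, proteases that cleave IGF binding proteins, were lower members: Pappa averaged 1182 in FIPs and 661 in MLCs, against 3873 in APCs and 2440.1 in SMCs. Pappa2 averaged 279 in FIPs and 91.3 in MLCs, against 1154 in APCs and 1772 in SMCs.

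Receptors and contact signals made up 6 of the higher and 7 of the lower members, by roles assigned after the values were seen. Il6ra, the interleukin 6 receptor alpha chain, averaged 759 ± 75.9 in FIPs and 1123 ± 67.8 in MLCs, against 285 ± 23.9 in APCs and 241 ± 63.3 in SMCs. Tnfrsf1b, a tumour necrosis factor receptor, averaged 1581 in FIPs and 1722 in MLCs, against 606 in APCs and 569.5 in SMCs. Efnb2, the ligand ephrin-B2, averaged 736 in FIPs and 1667 in MLCs, against 190.3 in APCs and 291 in SMCs, while Efna3, an ephrin-A ligand, was low and on the lower side, at 1.66 in FIPs and 3.25 in MLCs, against 8.63 in APCs and 20.8 in SMCs. Adgrd1, an adhesion G protein-coupled receptor, was the most abundant higher member, at 11049 ± 629 in FIPs and 16797 ± 99.2 in MLCs, against 1324 ± 309 in APCs and 5249 ± 1143 in SMCs. Tlr5, the flagellin receptor, averaged 261 in FIPs and 566 in MLCs, against 101 in APCs and 116 in SMCs. Cish and Spsb1 code for SOCS-box proteins, which link receptors and other proteins to ubiquitin ligases, and Cish averaged 1062 in FIPs and 922 in MLCs, against 434 in APCs and 346 in SMCs. Spsb1 averaged 2009.7 in FIPs and 2622 in MLCs, against 849 in APCs and 960.0 in SMCs.

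Intracellular signalling gave 9 higher and 7 lower members. Rcan1, an inhibitor of the phosphatase calcineurin, averaged 4167 ± 410.2 in FIPs and 5675 ± 1066 in MLCs, against 1227 ± 180.1 in APCs and 1077 ± 138 in SMCs. Pde8a, a phosphodiesterase that breaks down cyclic AMP, averaged 1359 ± 98 in FIPs and 972 ± 62.1 in MLCs, against 194 ± 12.8 in APCs and 191 ± 60.3 in SMCs, and Rras2, a Ras-related GTPase, averaged 1772 in FIPs and 2219 in MLCs, against 383 in APCs and 798 in SMCs. On the lower side Gnao1, a G protein alpha subunit, averaged 292 in FIPs and 178 in MLCs, against 593 in APCs and 1101 in SMCs, and Rasgrp2, an exchange factor for Rap GTPases, averaged 90.0 in FIPs and 81.8 in MLCs, against 330.5 in APCs and 219 in SMCs. Ion channels and transporters numbered 3 higher and 10 lower. Kcnk5, a background potassium channel, averaged 369.6 in FIPs and 1176 in MLCs, against 104 in APCs and 178 in SMCs. Kcnh2, the cardiac potassium channel gene also known as HERG in human, averaged 123 in FIPs and 84.7 in MLCs, against 379 in APCs and 282 in SMCs. Ryr2, the ryanodine receptor that releases stored calcium, averaged 50.5 in FIPs and 3.83 in MLCs, against 120.3 in APCs and 174 in SMCs.

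Ngfr and Ntrk2, both receptors, were lower members. Ngfr, the low-affinity neurotrophin receptor p75, had 209, 309.7, 239 and 206 in FIPs and 104, 63.4, 89.2 and 62.5 in MLCs, against 1331, 1598, 1320.4 and 1458 in APCs and 888, 799, 734 and 792 in SMCs. APCs stood highest for Ngfr and MLCs lowest. Ntrk2, the receptor TrkB for brain-derived neurotrophic factor, had 1871, 1875, 1989 and 2201 in FIPs and 84.6, 103, 97.4 and 48.4 in MLCs, against 3995, 4036, 4488 and 4823 in APCs and 4144, 4443, 3482 and 5030.3 in SMCs. FIPs and MLCs were far apart in Ntrk2, by 4.61 (SE 0.17, adjusted p = 4.22e-15), and the FIP level was 1984, against 4336 in APCs. Gdnf, glial cell line-derived neurotrophic factor, was low everywhere, at 4.04 in FIPs and 1.89 in MLCs, against 17.4 in APCs and 25 in SMCs. Ngfr and Cdh19 are also Schwann cell markers. Of the 9 genes of that list, Sox10, a defining transcription factor, averaged 0.462 in FIPs and 1.77 in MLCs, against 0.252 in APCs and 30.0 in SMCs. The summed Schwann list was 408 to 537 in FIPs and 3589.8 to 3830.5 in MLCs, against 1506 to 1799 in APCs and 1379 to 1700.4 in SMCs, with Mbp highest in MLCs. The part of Schwann cell RNA in the Ngfr and Cdh19 values was not tested.

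By roles assigned after the values were seen, matrix and basement membrane genes made up 22 of the lower members. Ntn4, a basement membrane protein counted above with the secreted signals, was a higher member. Cnmd, chondromodulin, an inhibitor of vessel growth first known from cartilage, had the widest gap of all members, 14.9-fold, with 14.8, 32.4, 16.2 and 23.6 in FIPs and 5.86, 4.23, 4.43 and 3.52 in MLCs, against 418, 559.9, 496 and 629 in APCs and 329.6, 243, 301 and 451 in SMCs. Tnmd, its relative tenomodulin, averaged 9.37 in FIPs and 0.209 in MLCs, against 62.4 in APCs and 53.8 in SMCs. Lama1, the laminin alpha 1 chain of early basement membranes, had 72.2, 64.7, 68.7 and 65.3 in FIPs and 26.8, 33.8, 30.2 and 29.1 in MLCs, against 896, 877, 880.0 and 501 in APCs and 877, 618, 346 and 367 in SMCs. APCs replicate 4 and SMCs replicates 3 and 4 were lower than the other libraries of their populations. Smoc1, a calcium-binding basement membrane protein that modulates BMP signals, averaged 53.9 ± 5.40 in FIPs and 41.4 ± 14.6 in MLCs, against 867 ± 20.3 in APCs and 364 ± 40.5 in SMCs.

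Col8a2, Col9a2, Col11a1 and Col13a1 were the collagen members. Col8a2 averaged 733 ± 67.5 in FIPs and 597 ± 44.4 in MLCs, against 2353 ± 149.8 in APCs and 3238 ± 263 in SMCs. Col9a2, a cartilage collagen chain, averaged 66.9 in FIPs and 17 in MLCs, against 397 in APCs and 603 in SMCs, and Col11a1 averaged 47 in FIPs and 43.6 in MLCs, against 117 in APCs and 1298 in SMCs, with APCs far below SMCs. Emilin3, an elastin-interface protein, averaged 20.5 in FIPs and 22.7 in MLCs, against 173 in APCs and 308 in SMCs. Hapln1, the link protein of hyaluronan, averaged 47.4 in FIPs and 45.6 in MLCs, against 208 in APCs and 149 in SMCs. The list of fibrillar collagens, elastic fibre and matricellular genes had 4 called higher and 24 lower of 71 tested, with a median of -0.53. The basement membrane list had 6 higher and 9 lower of 31. In this contrast, which the rule used and 1 population can carry, 7.00% of all tested genes were called higher and 7.55% lower. Of the 71 genes, 39 were called higher in FIPs than in MLCs and 12 lower, where 12.5% and 18.6% of all tested genes were. The list of these 71 summed to a mean of 4975617 in FIPs and 2115282 in MLCs, against 3001363 in APCs and 3990738 in SMCs. The basement membrane list summed to 699878 in FIPs and 362601 in MLCs, against 633383 in APCs and 472031 in SMCs.

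**Figure D2:**
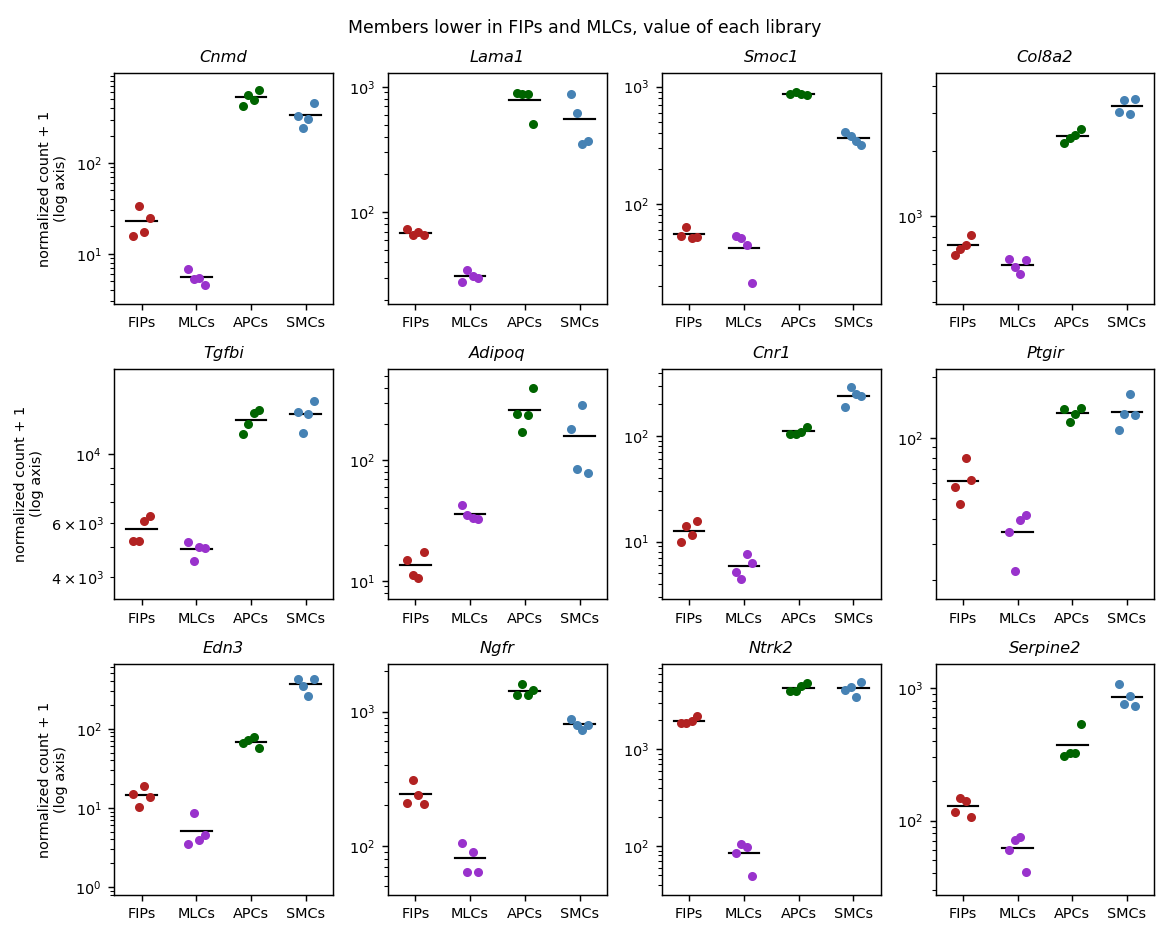
Normalized count plus 1 on a log axis for 12 members lower in FIPs and MLCs. Each point is 1 library and each bar the mean of 4. All FIP and MLC points lie below all APC and SMC points; Ntrk2 is lowest in MLCs and intermediate in FIPs.

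Some adipocyte genes were also on the lower side. Adipoq, the adipocyte hormone adiponectin, had 13.9, 10.2, 9.55 and 16.3 in FIPs and 41.9, 33.8, 32.5 and 31.7 in MLCs, against 239, 171, 234 and 398 in APCs and 181, 83.2, 286 and 77.7 in SMCs. Its SMC libraries spread widely and overlapped those of APCs. Slc2a4, the insulin-responsive glucose transporter, averaged 26.7 ± 3.07 in FIPs and 19.3 ± 7.31 in MLCs, against 202 ± 18.5 in APCs and 91.3 ± 13.5 in SMCs. Plin4, a lipid droplet protein, averaged 16.6 in FIPs and 23.6 in MLCs, against 60.8 in APCs and 82.6 in SMCs. Adrb3, the beta 3 adrenergic receptor of fat, averaged 12.8 in FIPs and 5.55 in MLCs, against 41.5 in APCs and 54.2 in SMCs, and Klb, the co-receptor of FGF21, averaged 6.32 in FIPs and 5.32 in MLCs, against 43.6 in APCs and 18.8 in SMCs. In the list of differentiation and lipid storage genes, 1 was called higher and 19 lower of 39 tested, with a median of -0.98. Over all tested genes, 7.00% were called higher and 7.55% lower in this contrast, which the rule used and 1 population can carry. Of the 39, 18 were called higher in APCs than in SMCs and 3 lower, where 3.79% and 13.5% of all tested genes were. Only 3 genes of the list, Adipoq, Slc2a4 and Plin4, were members. Pparg, the master regulator of fat cell formation, was not a member, since SMCs were low too: it averaged 444 in FIPs and 39.6 in MLCs, against 1282 in APCs and 109.9 in SMCs. Of the mature adipocyte markers, Lep, the gene of leptin, averaged 0.932 in FIPs and 1.94 in MLCs, against 1.62 in APCs and 1.04 in SMCs, and Plin1 averaged 38.7 in FIPs and 49.4 in MLCs, against 1607 in APCs and 53 in SMCs. The part of mature adipocyte RNA in the Adipoq values was not tested.

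Contractile and mural genes gave few members. Lmod1, leiomodin of smooth muscle, averaged 8.73 in FIPs and 12.9 in MLCs, against 67.8 in APCs and 102 in SMCs. Gucy1b1, a subunit of the nitric oxide receptor soluble guanylate cyclase, averaged 90.3 ± 11.7 in FIPs and 92.6 ± 8.40 in MLCs, against 442 ± 37.5 in APCs and 319 ± 28.3 in SMCs. Itga8, an integrin that binds nephronectin, averaged 157 in FIPs and 9.83 in MLCs, against 1388 in APCs and 387 in SMCs. In the contractile list, 1 was called higher and 6 lower of 19 tested, and in the pericyte list 12 of 18 were called lower. Over all tested genes, 7.00% were called higher and 7.55% lower in this contrast, which the rule used and 1 population can carry. Notch3 of the pericyte list was called lower, averaging 1752 in FIPs and 133 in MLCs, against 4386 in APCs and 1731 in SMCs.

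**Figure D3:**
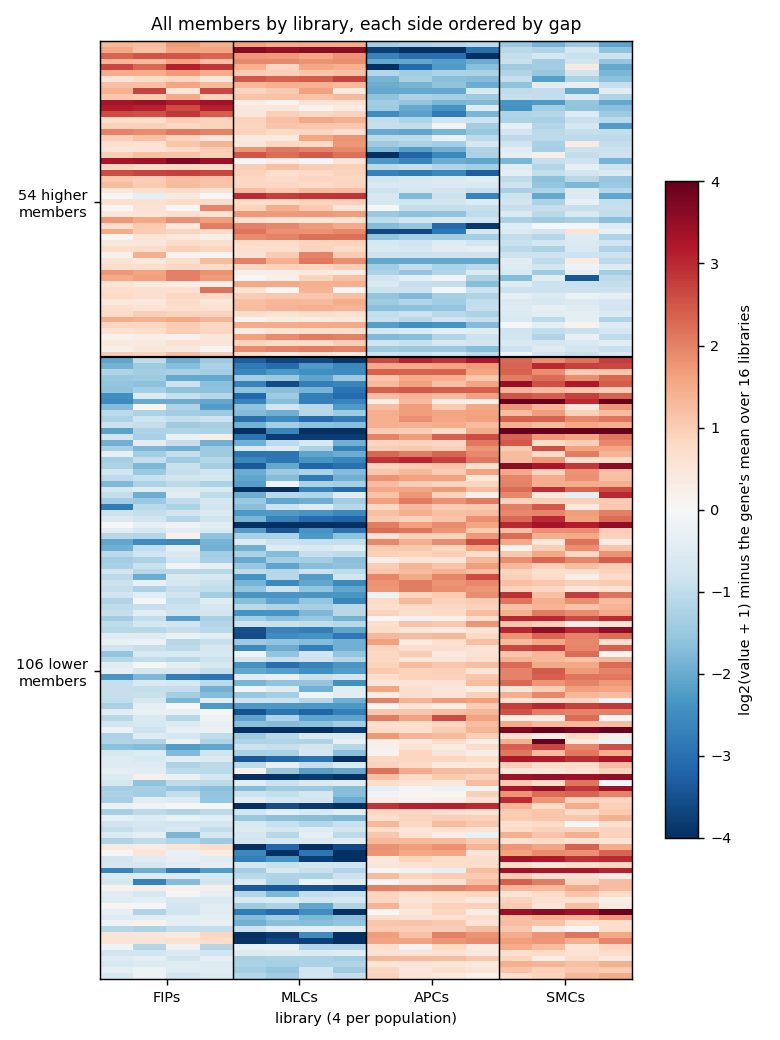
All 160 members (rows, 54 higher above 106 lower, widest gap first on each side) in the 16 libraries (columns, 4 per population). Colour is log2(value + 1) minus the gene's mean over the 16 libraries, with colours held at -4 and 4; the sign pattern follows from the rule, and shades within a side show where FIPs and MLCs, or APCs and SMCs, differ.

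How FIPs and MLCs compare within the members was not used by the rule, except that it sets a floor under the nearer of them. Of the 160 members, 148 had at least 10 normalized counts in at least 4 libraries and were tested; the 5 higher and 7 lower members that were not are low everywhere, such as Htr1f, a serotonin receptor, at 1.64 in FIPs and 3.19 in MLCs, against 0 in APCs and 0 in SMCs. Calls required an adjusted p below 0.05 together with a 2-fold difference either way. Among 49 tested higher members, 11 were called higher in FIPs and 11 lower in FIPs than in MLCs, where 12.5% and 18.6% of all tested genes were called. With libraries scaled to equal totals the split was 6 to 15, and with quantile normalization 11 to 7. The median difference was -0.13 among them and -0.02 among all tested genes, and 27 of the 49 lay within 2-fold.

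The higher members that favoured FIPs included Cmah, which makes the sialic acid Neu5Gc, with 2.95 (SE 0.15, adjusted p = 8.83e-13), and Limch1, an actin and myosin regulator, with 1.88 (SE 0.14, adjusted p = 4.61e-10). Aif1l, an actin-bundling protein, gave 1.83 (SE 0.20, adjusted p = 9.2e-08). Those that favoured MLCs included Tmem108, a transmembrane protein, with -1.86 (SE 0.21, adjusted p = 1.83e-07), Kcnk5, a potassium channel, with -1.67 (SE 0.10, adjusted p = 1.18e-11), and Efnb2, with -1.18 (SE 0.12, adjusted p = 6.65e-08). Cmah averaged 2636 in FIPs and 342 in MLCs.

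Among 99 tested lower members, 47 were called higher in FIPs (47.5%, against 12.5% of all tested genes) and 4 lower in FIPs than in MLCs (4.04%, against 18.6%). MLCs were thus mostly the lower of the pair, and the median difference was 0.85. Prtg, protogenin, gave 4.42 (SE 0.28, adjusted p = 3.56e-11), Adamtsl2, a microfibril-associated glycoprotein, 4.56 (SE 0.39, adjusted p = 3.41e-09), and Slc7a2, a cationic amino acid transporter, 3.68 (SE 0.08, adjusted p = 1.19e-18). Slc7a2 averaged 593 in FIPs and 45.6 in MLCs, against 2007 in APCs and 1307 in SMCs. Epyc, epiphycan, a cartilage proteoglycan, averaged 90.0 in FIPs and 4.90 in MLCs, against 238 in APCs and 1879 in SMCs, with 4.06 (SE 0.26, adjusted p = 4.1e-11). Alpl, tissue-nonspecific alkaline phosphatase, ran the other way, at 24.8 in FIPs and 89.4 in MLCs, against 254 in APCs and 606 in SMCs, with -1.86 (SE 0.20, adjusted p = 8.23e-08). Equal totals gave 36 and 4 calls, quantile normalization 58 and 1, and a pseudocount of 8 gave 31 and 3.

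APCs and SMCs also differed within the members. Of the 49 tested higher members, 0 were called higher in APCs and 12 lower in APCs than in SMCs by limma, where 3.79% and 13.5% of all tested genes were called. At an unadjusted p under 0.05 and the same size, 1 was higher in APCs, and edgeR and DESeq2 each gave 0. With quantile normalization the split was 4 to 8. Bmp7 had a difference, APCs minus SMCs, of -2.44 (SE 0.23, adjusted p = 5.67e-08), and Limch1 -2.21 (SE 0.14, adjusted p = 1.76e-10). Of the 99 tested lower members, 7 were called higher in APCs and 29 lower, and with quantile normalization 12 and 22. Smoc1 was higher in APCs, by 1.26 (SE 0.20, adjusted p = 3.63e-05), and Edn3 lower, at -2.38 (SE 0.27, adjusted p = 5.91e-07).

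**Figure D4:**
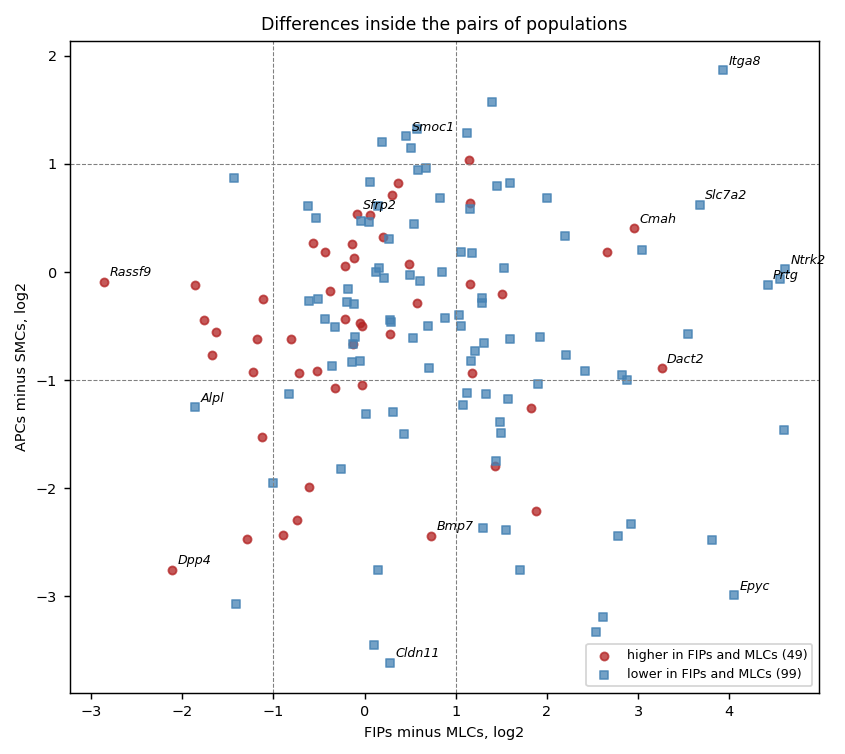
Log2 difference FIPs minus MLCs (horizontal) against APCs minus SMCs (vertical) for the 148 tested members, circles for higher and squares for lower members, dashed lines at -1 and 1. Most lower members lie to the right of 0, where FIPs exceed MLCs, and most members lie below 0, where SMCs exceed APCs.

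Genes of the mesothelial list were compared with the members. The 22 genes of the mesothelial list summed to 15647 to 19594 in FIPs and 333307 to 344146 in MLCs, against 33225 to 45861 in APCs and 42720.2 to 66773 in SMCs. Igfbp5, an IGF binding protein that stromal cells also make, averaged 12459 in FIPs and 90587 in MLCs, against 32103 in APCs and 26931 in SMCs. It carried most of the sum in FIPs and APCs, but not in SMCs, where the mean sum was 54229. Pkhd1l1, Upk3b and Podxl of the list averaged 4321, 3528 and 2996 in SMCs. None of the 22 was a member. As a percent of the MLC mean, their median level was 0.273% in FIPs, 0.102% in APCs and 7.98% in SMCs. The 49 tested higher members had medians of 91.3% in FIPs, 17.3% in APCs and 23% in SMCs. Dpp4 in FIPs was at 23.3% of its MLC level and Msln at 0.218%. In SMCs Dpp4 was at 3.86% and Msln at 4.45%. Of the 22, 18 were called lower in APCs than in SMCs, where 13.5% of all tested genes were. That is the direction of the 12 higher members above, and the part of mesothelial cells in that result was not tested.

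**Figure D5:**
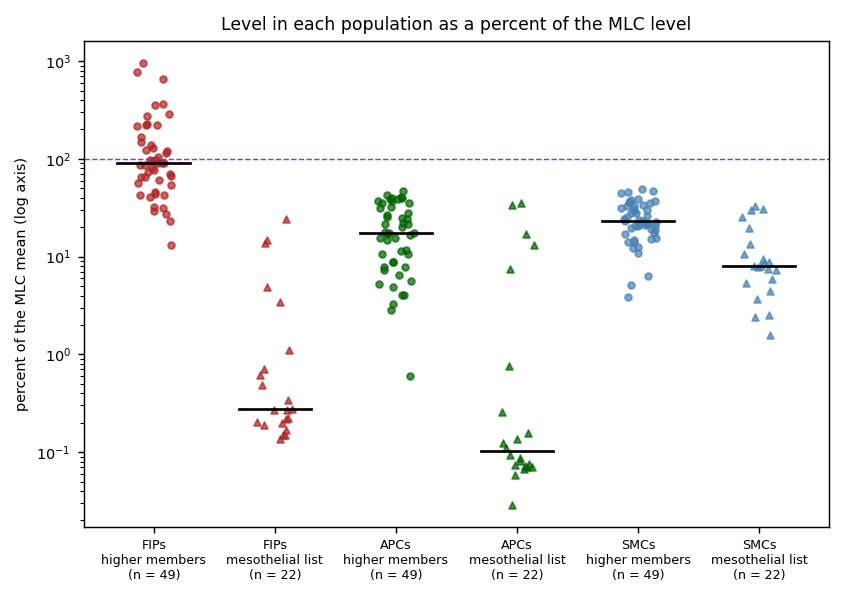
Mean level in FIPs, APCs and SMCs as a percent of the MLC mean (log axis), for the 49 tested higher members (circles) and the 22 mesothelial genes (triangles); bars are medians, the dashed line marks 100%, and Sytl3, at 0 in APCs, is not drawn there. In FIPs the members centre on 91.3% and the mesothelial genes on 0.273%. The rule caps the member shares in APCs and SMCs and sets a floor under those in FIPs.

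The summed markers of endothelial cells also lay higher in every FIP and MLC library. The 14 genes of the endothelial list summed to 8050.1 to 8953 in FIPs and 4956 to 6076 in MLCs, against 1309 to 2016 in APCs and 3811 to 4600.0 in SMCs. None of the 14 was a member. Tek, the angiopoietin receptor, made up most of the FIP sum, averaging 7827 in FIPs and 36.7 in MLCs, against 719 in APCs and 1251 in SMCs. Kdr, a receptor for vascular endothelial growth factor, averaged 85.7 in FIPs and 2485 in MLCs, against 207 in APCs and 826 in SMCs, while the defining marker Pecam1 averaged 87.8 in FIPs and 102 in MLCs, against 102 in APCs and 30.6 in SMCs. Markers of the list differed in direction: Cdh5, another defining marker, averaged 90.9 in FIPs and 129 in MLCs, against 124 in APCs and 1698 in SMCs, and Esam, a junction protein, averaged 34.4 in FIPs and 2444 in MLCs, against 41.2 in APCs and 169 in SMCs. Erg averaged 8.78 in FIPs and 10.7 in MLCs, against 8.66 in APCs and 4.54 in SMCs. Ptprc, the pan-leukocyte marker, was under 10 in every population. The part of endothelial RNA in the higher members was not tested.

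The Dpp4-positive interstitial progenitor list overlapped the higher members in 5 of its 25 genes, Dpp4, Bmp7, Cmah, Dact2 and Limch1, and no lower member. Of all rows, 0.199% were higher members, and the list was chosen with earlier results of these data known. Of the 25 genes of the list, all tested, 17 were called higher in FIPs than in MLCs and 1, Dpp4 itself, lower. Over all tested genes the shares were 12.5% and 18.6%. Pi16, another gene of the list and of the same progenitor, averaged 11573 in FIPs and 39.9 in MLCs, against 715 in APCs and 4871 in SMCs. Sema3c, a semaphorin of the list, averaged 18402 in FIPs and 9503 in MLCs, against 3770.4 in APCs and 5169 in SMCs and missed the 2-fold gap.

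Other lists held few members. In the contrast that the rule used, 7.00% of all tested genes were called higher and 7.55% lower. In the axon guidance list, 16 were called higher and 14 lower of 70 tested, with 2 members on each side, Ntn4 and Efnb2 among the higher and Efna3 and Sema5b among the lower. The preadipocyte list had 18 of 27 called lower, and no member. Between FIPs and MLCs, 20 of the 27 were called higher in FIPs and 2 lower, where 12.5% and 18.6% of all tested genes were. That list summed to a mean of 328649 in FIPs and 49852 in MLCs, against 489908 in APCs and 227081 in SMCs. The interferon list had 15 of 36 called higher and no member. Of its genes, 16 were called lower in FIPs than in MLCs, as were 18.6% of all tested genes. MLC libraries differed widely in its sum, which was 37009.5 to 50562 in FIPs and 40719 to 87178 in MLCs, against 34767 to 42510.4 in APCs and 21578 to 27779.6 in SMCs.

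Near the threshold, Lgi3, Kcnk5, Spsb1 and Ptgs2 were the higher members with the narrowest gaps, 1.04 to 1.08 on the log2 scale, and Rin3 and Eya2 were among those just below it, at 0.978 and 0.968. On the lower side Dusp15, Ppm1h, Gnao1 and Pappa lay just inside at 1.01 to 1.03, and Hhip, which averaged 7.29 in FIPs and 4.42 in MLCs, against 15.6 in APCs and 1410.3 in SMCs, just outside at 0.999. A further 36 higher and 38 lower genes had the 2-fold gap but overlapping libraries. Some members overlap another gene on the genome, and whether counting used strand is not given, so reads may be shared and their values are uncertain. Of the 160 members, 5 higher and 9 lower ones were so placed. On the higher side these were Man1a and Gm16998, which overlap each other, Sp110 with Sp140, Gm16793 with Mfhas1 and Zfp750 with Tbcd. On the lower side they were Epyc and Gm10754, which overlap each other, Plin4 with Hdgfl2, Gm9899 with Kcnk3, Med12l with P2ry14 and Igsf10, D630003M21Rik with 1700060C20Rik, Itga8 with E030013I19Rik, Ltbp2 with D030025P21Rik and Efna3 with Gm15998.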

How the data were processed

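The values in the table were deposited by the authors as a normalized signal, in which each library's gene counts carry 1 common divisor. Per the submitters' processing notes, Trim Galore 0.4.1, HISAT2 2.0.1, featureCounts 1.4.6, DESeq2 1.6.3 and the builds GRCm38 and mm10 were used. Libraries were made with a NEBNext Ultra II kit, per the labels' protocols. Columns headed SMLCs were taken as the SMC libraries. In all 16 columns 100.0% of values gave whole reads within 0.01, and 14 entered the count tests; FIPs replicate 1 and APCs replicate 2, whose divisors lay too close to 1, were left out.

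The rule was applied to log2(value + 1). Genes with a value of at least 10 in at least 4 libraries, 15024 in all, were tested with limma 3.58.1 (R 4.3.3; 4 populations, 16 libraries, trend; tests were two-sided), with Benjamini-Hochberg adjustment over every tested gene. edgeR 4.0.16 and DESeq2 1.42.0 on recovered reads were alternatives, with other pseudocounts, scalings and left-out libraries. The fit was tested on simulated data. The added 1 understates changes of low genes.

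Members and lists were chosen with earlier results of these data known. Genes named were Dpp4, the 15 widest gaps per side with a mean of at least 100 in both higher populations and a symbol that is not predicted, up to 6 members of each list, and the 8 largest FIP-MLC differences each way; others were named for their role after their values were seen. Whether replicate numbers pair the libraries was not settled. Correlations of same-numbered libraries ran from -0.034 to 0.171, 6 of 24 above 0.1, and those of other-numbered libraries from -0.186 to 0.221. RefSeq gene spans and promoters are on GRCm38.p6, matched by Entrez number, 1-based.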

Additional observations from a re-analysis of the deposited data

Results flagged for a closer look

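A library was looked at again when the gap between it and the nearest other library of its population, divided by the range of the 4, passed Dixon's 95% critical value. Of 272 groups of 4 among the 68 named genes, 20 passed, and chance alone flags about 1 in 20. APCs replicate 4 held 7 of them and SMCs replicate 3 held 3; these are the shallowest libraries.

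In APCs replicate 4 these were Sp110 at 46.7 where the other 3 had 27 to 30.2, Lama1 at 501 where the other 3 had 877 to 896, Lmod1 at 98.6 where the other 3 had 55.8 to 60.4 and Ltbp2 at 742 where the other 3 had 250.2 to 305. The other genes of that library were Pla2g4a at 374 where the other 3 had 225 to 237, Rxrg at 15.6 where the other 3 had 5.72 to 6.04 and Serpine2 at 531 where the other 3 had 304 to 322. In SMCs replicate 3 these were Il6ra at 335 where the other 3 had 200.1 to 223, Edn1 at 32 where the other 3 had 5.11 to 8.54 and Angpt4 at 305 where the other 3 had 387 to 398. In FIPs replicate 1 it was Gucy1b1 at 108 where the other 3 had 83.2 to 85.2. In FIPs replicate 2 these were Dpp4 at 1645 where the other 3 had 2139.9 to 2219 and Smoc1 at 61.9 where the other 3 had 50.6 to 52.4. In FIPs replicate 3 these were Pde8a at 1506 where the other 3 had 1306 to 1313, Dact3 at 506 where the other 3 had 439.8 to 449 and Gdnf at 8.59 where the other 3 had 1.81 to 2.97. In MLCs replicate 2 these were Lrrc8b at 504 where the other 3 had 423 to 429 and Il6ra at 1022 where the other 3 had 1153 to 1159. In MLCs replicate 3 it was Emilin3 at 15.5 where the other 3 had 24.5 to 26. In APCs replicate 2 it was Pappa2 at 1298 where the other 3 had 1094 to 1122. 

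APCs replicate 4 was also high in Acta2, an actin of smooth muscle, at 2388, where the lowest APC library had 156. Lmod1 and Ltbp2 were higher and Lama1 lower there; the part of other cells in that library was not tested.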

How the results depend on the processing

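A 4-fold gap left 11 higher and 30 lower members. Leaving out each library in turn gave 53 to 64 higher and 104 to 116 lower members, and 44 of 54 and 92 of 106 members stayed in every such table. Both other pseudocounts and both other scalings together kept 34 higher and 70 lower members. Members that left the set under at least 1 of these included Adgrd1, Tlr5, Rras2, Spsb1, Kcnk5, Lgi3, Gdnf, Klb, Plin4, Ryr2, Ltbp2, Kcnh2, Efna3, Prtg, Adamtsl2, Pappa, Gnao1 and Rasgrp2. Equal totals gave 48 and 153 members, quantile normalization 73 and 89.

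Among tested higher members, calls for FIPs over MLCs numbered 11, and 6 with equal totals, a scale that moved the median FIP minus MLC difference of all tested genes to -0.35. Calls for MLCs numbered 11, and 7 with quantile normalization. Among lower members, calls for FIPs numbered 47, and 31 with a pseudocount of 8; calls for MLCs numbered 4, and 1 with quantile normalization. Between APCs and SMCs, higher members called in APCs numbered 0, 4 with quantile normalization, and 0 to 1 with a library left out (1 without SMCs replicate 1 or replicate 2). Higher members called in SMCs numbered 12, and 7 with a pseudocount of 8; lower members called in APCs numbered 7, and 12 with quantile normalization. With a library left out, these counts ran 9 to 11, 9 to 12, 45 to 48, 3 to 4, 11 to 15 and 5 to 9, and 27 to 30 for lower members called in SMCs. The cause of these shifts was not tested.

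With a replicate block, the counts between FIPs and MLCs were 10, 11, 47 and 4, within 1.5 times of those without the block, as were those between APCs and SMCs. On recovered reads, calls higher and lower between FIPs and MLCs were 11 and 12 by edgeR and 11 and 11 by DESeq2 for higher members, and 47 and 4 by both for lower members. For 132 differences of named genes, 3300 alternative values were computed: 53 lost and 27 gained the call, and 0 called difference changed sign. The FIP minus MLC difference of Edn1 lost its call with equal totals (adjusted p = 0.0677 by limma) and without FIPs replicate 3 or MLCs replicate 2. The 12 untested members, such as Zfp750 and Taf7l, rest on few reads.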

Other observations

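Several genes of motile cilia followed the direction of the higher members at low levels. They were noticed in the values, so they carry no test. Dnah5, an axonemal dynein and a member, had 9.89, 25.9, 4.77 and 25.4 in FIPs and 6.70, 7.61, 11.8 and 4.40 in MLCs, against 0, 0, 0 and 1.73 in APCs and 1.05, 1.07, 0 and 2.04 in SMCs. Hydin, a protein of the central pair of motile cilia, had 15.8, 38.8, 3.82 and 41.7 in FIPs and 13.4, 11, 3.69 and 3.52 in MLCs, against 4.23, 2.01, 3.57 and 1.73 in APCs and 2.11, 3.20, 0 and 12.3 in SMCs. Its libraries overlapped, and it was no member. The 11 ciliary genes summed to 71.6 to 278 in FIPs and 163 to 204 in MLCs, against 19.4 to 29.4 in APCs and 25.3 to 47 in SMCs. FIP libraries differed among themselves more than MLC libraries did.

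Genes of the epididymal duct, the organ beside this fat pad, were also uneven between libraries. Crisp1, a secreted protein of the epididymis, had 42.5, 0.924, 1.91 and 2.72 in FIPs and 11.7, 1.69, 32.5 and 51.9 in MLCs, against 0, 0, 0 and 0 in APCs and 0, 1.07, 0 and 3.07 in SMCs. The 7 genes of this group summed to 17.2 to 162 in FIPs and 18.6 to 158 in MLCs, against 2.86 to 11 in APCs and 4.27 to 14.3 in SMCs. None of them was a member. Cdh1, a marker of epithelia, averaged 7.25 in FIPs and 38.1 in MLCs, against 1.48 in APCs and 13.5 in SMCs. The part of epididymal RNA in the low-level members was not tested.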
